A study of Caenorhabditis elegans with 9 samples.

Results

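The insulin signalling cascade of Caenorhabditis elegans was followed here through 8 of its core genes (daf-2, age-1, daf-18, pdk-1, akt-1, akt-2, sgk-1 and daf-16) together with lea-1, a gene of the late embryogenesis abundant type. These 9 genes were taken by name from the 46748 genes of the deposited count table. They were chosen with earlier results of these data known, so their counts and ranks against all genes are descriptive only. All 9 passed the filter on low counts, which kept 14622 genes. The RNA was from whole wild-type (N2) hermaphrodites aged 5 days. They fell into 3 groups of RNA interference (RNAi), with 3 libraries each. Control worms received L4440, the empty feeding vector. H28O16.1 is the sequence name of atp-1, which encodes the alpha subunit of mitochondrial ATP synthase, and B0395.3 is a gene related to carnitine O-acyltransferases. Whether the libraries of a group were grown apart is not stated in the labels; p-values therefore rest on the spread among libraries, and that spread may be technical.

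In the cascade, insulin-like peptides bind the receptor tyrosine kinase DAF-2. The active receptor recruits the phosphoinositide 3-kinase AGE-1, whose lipid product is removed again by the phosphatase DAF-18. The lipid brings the kinases PDK-1, AKT-1 and AKT-2 to the membrane, and phosphorylation by the AKT kinases keeps the FOXO transcription factor DAF-16 out of the nucleus. SGK-1 is a kinase related to AKT that also takes input from the TOR complex with Rictor. The pathway is known in worms for its part in lifespan, dauer formation and stress resistance. Proteins of the late embryogenesis abundant type are known from plant seeds and from animals that survive drying, and LEA-1 is needed for desiccation tolerance in C. elegans.

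Levels are in CPM, read counts relative to library sizes that TMM factors adjust. Libraries held between 31236614 and 40990685 counts, so the least abundant member still had 518 or more counts in each library. Within groups, the chi-square of counts per degree of freedom between libraries lay between 2.44 and 5.27, except for H28O16.1 replicate 3, which stood at 15.7 and 11.5 to replicates 1 and 2. The share of counts in annotated rRNA genes lay between 0.0869% and 0.102% for L4440, between 0.206% and 0.294% for B0395.3 and between 0.107% and 0.317% for H28O16.1. The share in genes of the mitochondrial chromosome was 0.639% to 0.666%, 0.622% to 0.630% and 0.301% to 0.427% in the same order, lowest in H28O16.1 replicate 3. The part of either share in the differences below was not tested. Each targeted mRNA was lowest in the group treated against it. The atp-1 mRNA stood at 66.9 to 75.4 CPM in H28O16.1 against 1864 to 2003 CPM in L4440, and the B0395.3 mRNA at 12.5 to 16.50 CPM in B0395.3 against 32.3 to 35.6 CPM in L4440. Genes with an edgeR quasi-likelihood p, adjusted by the Benjamini-Hochberg method over all 14622 genes, under 0.05 are called changed.

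In worms treated against atp-1, 7 of the 9 genes fell: lea-1, pdk-1, daf-18, daf-2, akt-2, akt-1 and age-1. In worms treated against B0395.3, lea-1, daf-18 and akt-1 fell, and sgk-1 and daf-16 rose. The transcript of lea-1 moved most in each comparison with L4440, to 28.2% of the control in H28O16.1 and to 61.7% in B0395.3. The mRNA of daf-16, the transcription factor at the end of the cascade, was at 0.11 log2 units in B0395.3 and 0.08 in H28O16.1. Genome-wide changes were frequent: 57.6% of all genes tested were called between H28O16.1 and L4440, 27.2% between B0395.3 and L4440 and 62.6% between H28O16.1 and B0395.3. Read against these shares, 7, 5 and 4 called members of 9 are not read as particular to the cascade. The comparisons of B0395.3 and H28O16.1 with L4440 share their control libraries, so a control library that is high or low moves both.

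**Figure D1:**
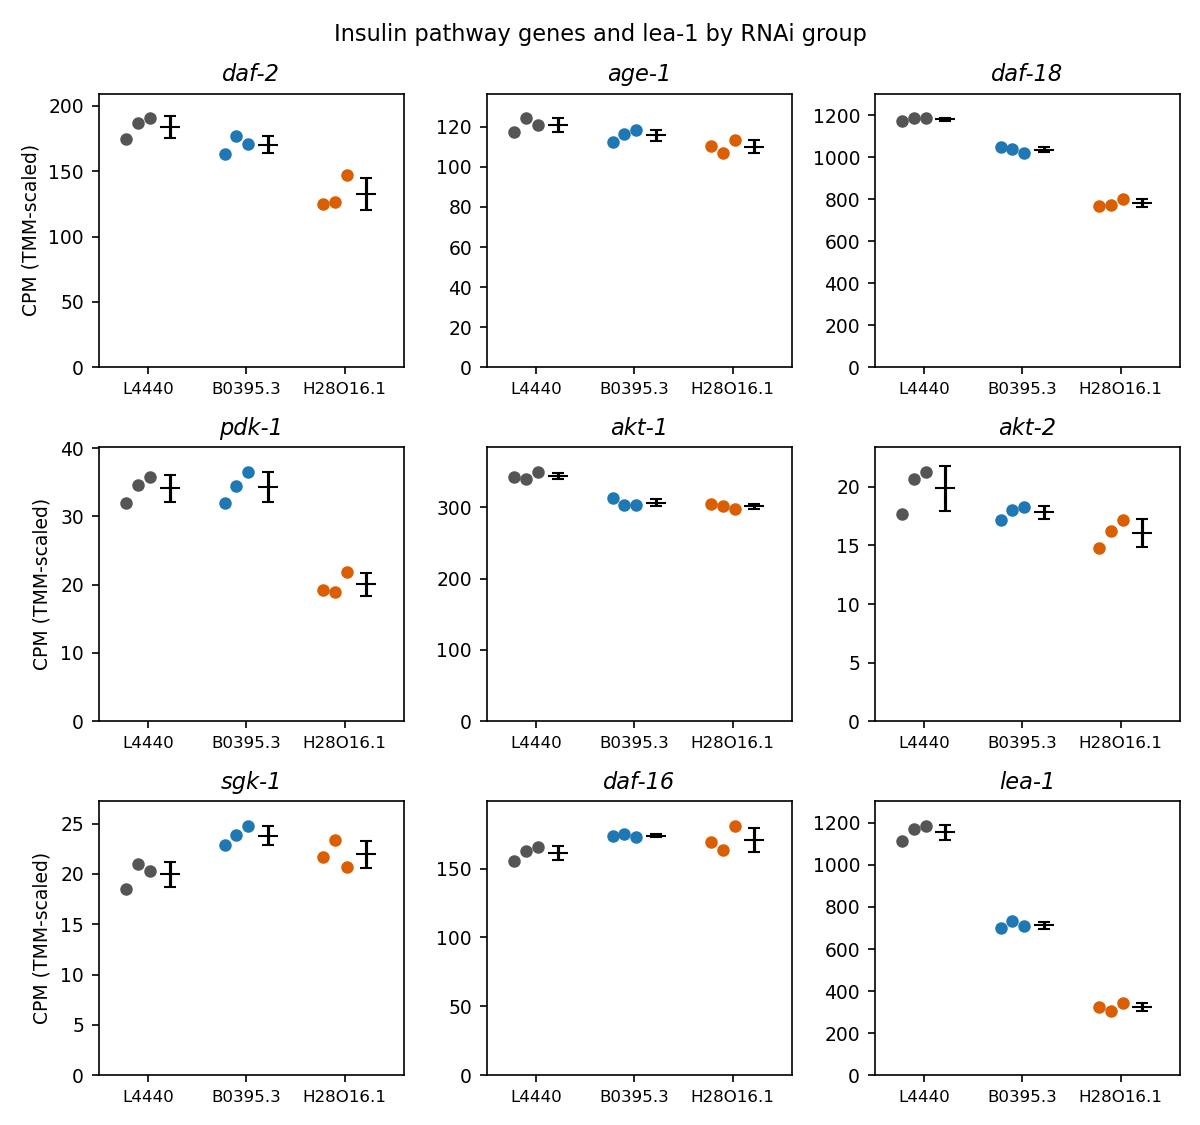
TMM-scaled CPM (vertical axes, from 0) of the 9 genes in each of the 9 libraries; coloured points are libraries, and the black bar beside them is the group mean with its SD. The 3 groups of lea-1 and of daf-18 lie in separate steps, highest in L4440 and lowest in H28O16.1, and pdk-1 is low in H28O16.1 alone.

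The gene daf-2, for the receptor, lies on chromosome III from 2994514 to 3040846 on the minus strand of WBcel235 and has 7 annotated transcripts. Its mRNA stood at 174, 187 and 190.4 CPM in L4440, at 163, 177 and 171 CPM in B0395.3, and at 125, 127 and 147 CPM in H28O16.1. The H28O16.1 libraries were all below the other groups, while B0395.3 and L4440 overlapped. daf-2 fell in H28O16.1 to 72.1% of the control, a log2 fold change of -0.47 (SE 0.06, adjusted p = 9.80e-06) and was lower there than in B0395.3 (-0.36, adjusted p = 9.43e-05). In B0395.3 its log2 fold change was -0.11, with a 95% interval from -0.23 to 0.0091 and an adjusted p = 0.163. This difference passed without H28O16.1 replicate 3 (adjusted p = 0.0172), a library of neither group compared.

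The lipid enzymes moved by different amounts. The kinase gene age-1 (chromosome II, 11519328 to 11527054, minus strand) stood at 117, 124 and 121 CPM in L4440, 113, 116 and 118 CPM in B0395.3 and 110.3, 107 and 113 CPM in H28O16.1. The order of the group means was that of daf-2, but B0395.3 overlapped with both of the other groups. age-1 fell in H28O16.1, though by -0.13 log2 units (SE 0.03, adjusted p = 0.00365), and 37.8% of all genes were at or below that log2 fold change. Its counts may include reads of B0334.10, which lies on the opposite strand and covers 4.89% of its exon bases. In B0395.3 the log2 fold change was -0.06, with an interval from -0.13 to 0.0078 (adjusted p = 0.179).

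The phosphatase gene daf-18 (chromosome IV, 420011 to 425177, minus strand) has 1 annotated transcript with 7 exons. It was the most abundant of the 9 per exon length, while in plain CPM its L4440 libraries overlapped with those of lea-1. It stood at 1173, 1185 and 1185 CPM in L4440, at 1049, 1038 and 1022 CPM in B0395.3 and at 767, 771 and 801 CPM in H28O16.1. No group overlapped with another. daf-18 fell to 87.8% of the control in B0395.3 (log2 fold change -0.19, SE 0.03, adjusted p = 0.000279) and to 66.0% in H28O16.1 (-0.60, SE 0.03, adjusted p = 2.02e-09), and it was lower in H28O16.1 than in B0395.3 (-0.41, adjusted p = 4.84e-08). Per exon length, the level of daf-18 over that of age-1, the enzymes that remove and make the same lipid, lay between 11.2 and 11.8 for L4440, between 10.2 and 10.98 for B0395.3 and between 8.20 and 8.51 for H28O16.1. These ratios did not overlap between groups, and they describe mRNA, not enzyme activity.

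Among the kinases, pdk-1 moved most in H28O16.1 and least in B0395.3, each against L4440. The gene (chromosome X, 1321344 to 1327986, plus strand) encodes the kinase that activates the AKT proteins. It stood at 31.9, 34.6 and 35.8 CPM in L4440, at 32.0, 34.5 and 36.4 CPM in B0395.3 and at 19.3, 18.9 and 21.9 CPM in H28O16.1. The L4440 and B0395.3 libraries covered nearly the same range, and the H28O16.1 libraries lay apart below it. pdk-1 fell in H28O16.1 to 58.7% of the control, a log2 fold change of -0.77 (SE 0.07, adjusted p = 7.66e-07), and 11.4% of all genes fell as far or farther. In B0395.3 the log2 fold change was 0.0079, with an interval from -0.14 to 0.15 (adjusted p = 0.949), and the difference between the treatments was -0.77 (adjusted p = 5.73e-07).

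The AKT genes differed in level. akt-1 (chromosome V, 10248905 to 10252845, plus strand) stood at 343, 339.6 and 349 CPM in L4440, at 312, 303 and 303 CPM in B0395.3 and at 305, 302 and 298 CPM in H28O16.1. Both treated groups lay below the control and overlapped with each other. akt-1 fell by 0.17 log2 units in B0395.3 (SE 0.03, adjusted p = 0.000268) and by 0.19 in H28O16.1 (SE 0.03, adjusted p = 2.49e-05). The difference between the treatments was -0.02, with an interval from -0.08 to 0.03 (adjusted p = 0.444).

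akt-2 (chromosome X, 14147700 to 14152070, plus strand) was far lower, at 17.7, 20.7 and 21.2 CPM in L4440, 17.2, 17.99 and 18.3 CPM in B0395.3 and 14.8, 16.3 and 17.2 CPM in H28O16.1. The H28O16.1 libraries lay below those of L4440, and the B0395.3 libraries overlapped with L4440. It fell in H28O16.1 (log2 fold change -0.31, SE 0.08, adjusted p = 0.00438) and was at -0.16 in B0395.3 (adjusted p = 0.153). Without L4440 replicate 1, the lowest control, the B0395.3 difference passed, at -0.23 (adjusted p = 0.0399). Per exon length, akt-1 exceeded akt-2 by a factor between 17.2 and 20.3 for L4440, between 17.3 and 18.98 for B0395.3 and between 18.1 and 21.6 for H28O16.1, with overlapping ranges.

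sgk-1 (chromosome X, 16254842 to 16262122, minus strand) went the other way. It stood at 18.5, 20.96 and 20.3 CPM in L4440, at 22.9, 23.8 and 24.7 CPM in B0395.3 and at 21.7, 23.4 and 20.7 CPM in H28O16.1. B0395.3 lay above L4440, and H28O16.1 overlapped with both. sgk-1 rose in B0395.3 to 119% of the control, a log2 fold change of 0.26 (SE 0.06, adjusted p = 0.00950), a call that was lost without B0395.3 replicate 3 (0.23, adjusted p = 0.0514). In H28O16.1 it was at 0.13, with an interval from -0.0051 to 0.27 (adjusted p = 0.0921), and passed without H28O16.1 replicate 3 (0.18, adjusted p = 0.0272).

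daf-16 (chromosome I, 10750498 to 10776703, plus strand) has 11 annotated transcripts, which the gene counts sum. Its mRNA stood at 156, 163 and 166 CPM in L4440, at 174, 175 and 173 CPM in B0395.3 and at 169, 164 and 181 CPM in H28O16.1. The B0395.3 libraries lay close together and above the controls, while H28O16.1 replicate 2 fell among the controls. daf-16 rose in B0395.3 by 0.11 log2 units (SE 0.04, adjusted p = 0.0454), close to the threshold, and the call was lost without any 1 of 5 libraries. The adjusted p was 0.167 without the first L4440 library, 0.0920 without the second, and 0.107, 0.109 and 0.100 without the B0395.3 libraries in turn. In H28O16.1 it was at 0.08 (adjusted p = 0.0642), and it passed without H28O16.1 replicate 2 (0.12, adjusted p = 0.0196) or L4440 replicate 3 (0.11, adjusted p = 0.0365). These counts do not show where DAF-16 protein was located.

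lea-1 (chromosome V, 10011923 to 10028168, plus strand) has 17 annotated transcripts with 4 to 12 exons. It stood at 1116, 1169.5 and 1183 CPM in L4440, at 699.7, 732 and 708 CPM in B0395.3 and at 325, 307 and 344 CPM in H28O16.1. The 3 groups were far apart relative to the spread of their libraries, which had coefficients of variation of 3.08%, 2.32% and 5.71%. The log2 fold change was -1.83 in H28O16.1 (SE 0.04, 95% interval -1.92 to -1.74, adjusted p = 3.26e-12) and -0.70 in B0395.3 (SE 0.04, interval -0.78 to -0.61, adjusted p = 5.47e-08). Between the treatments it was -1.13 (SE 0.04, adjusted p = 1.05e-10).

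Among all 14622 genes, lea-1 had the 13th smallest p between H28O16.1 and L4440 and the 87th smallest between B0395.3 and L4440. Its fold change was less extreme than its p: 643 genes (4.40%) fell as far or farther in H28O16.1, and 882 (6.03%) in B0395.3. The neighbouring gene acl-2 on the opposite strand covers 0.393% of the exon bases of lea-1. Without H28O16.1 replicate 3 the fall in H28O16.1 was -1.87.

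**Figure D2:**
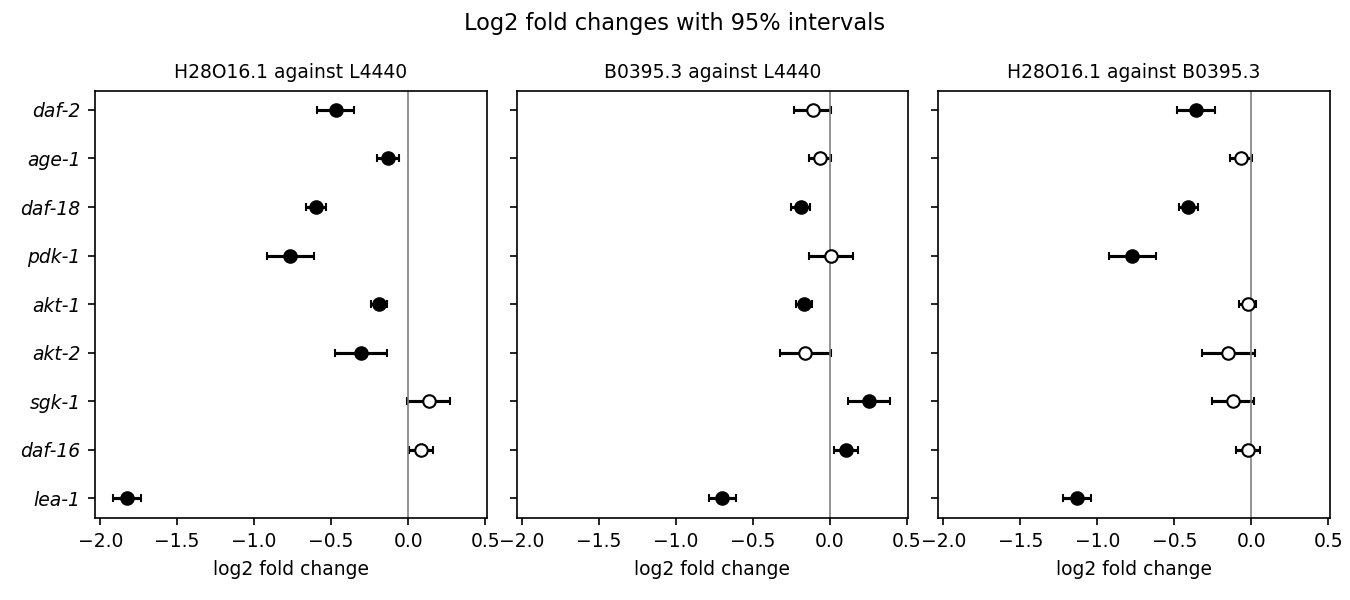
Log2 fold changes (horizontal axes) of the 9 genes in 3 comparisons, with 95% intervals of the edgeR fit; filled points had an adjusted p under 0.05. lea-1 lies farthest from 0 in each panel, at -1.83, -0.70 and -1.13, and pdk-1 is at 0.0079 in B0395.3 against L4440.

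Over the 9 members, 0 rose and 7 fell in H28O16.1 by edgeR, against 26.3% of all genes higher and 31.2% lower. At an unadjusted p under 0.05 there was 1 higher member, daf-16, and DESeq2 also called 1 member higher. The groups did not overlap for 7 members, all lower, against 61.4% of all genes (28.6% higher and 32.8% lower), and the median log2 fold change of the 9 was -0.31, against -0.0042 over all genes. In B0395.3, 2 rose and 3 fell, against 12.6% and 14.6% of all genes, with no overlap of the groups for 5 members (47.1% of all genes, 23.8% higher and 23.3% lower) and a median of -0.11 against 0.0079. The count of 5 changed members dropped to 3 without B0395.3 replicate 3. Between H28O16.1 and B0395.3, 4 members were lower (daf-2, daf-18, pdk-1 and lea-1) and 0 higher by edgeR, at an unadjusted p and by DESeq2 alike, against 32.1% of genes lower and 30.5% higher. Without H28O16.1 replicate 3, age-1 (-0.09, adjusted p = 0.0246) and akt-2 (-0.20, adjusted p = 0.0352) were also lower, which gave 6. The groups did not overlap for 4 members, all lower, against 66.8% of all genes (32.7% higher and 34.2% lower).

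Levels were then compared between genes per kilobase of merged exon, over all annotated transcripts of a gene. For genes with many transcripts, such as lea-1 with 17, this length may exceed that of the transcripts present. The order below depends on that choice. In L4440 the order was daf-18 (354 ± 2.0 CPM per kilobase, SD, n = 3), lea-1 (239 ± 7.38), akt-1 (151 ± 2.07), daf-16 (43.8 ± 1.42), age-1 (30.8 ± 0.879), daf-2 (22.2 ± 1.02), pdk-1 (14.1 ± 0.805), sgk-1 (12.2 ± 0.766) and akt-2 (8.35 ± 0.803). The libraries of each gene in this order lay above those of the next. In B0395.3 the order was the same except that sgk-1 (14.6 ± 0.570) and pdk-1 (14.2 ± 0.923) overlapped. In H28O16.1 lea-1 (67.4 ± 3.85) came after akt-1 (132 ± 1.54), and pdk-1 (8.26 ± 0.674) after sgk-1 (13.4 ± 0.821). Per exon length, 2.11% of 14519 genes with an annotated length stood above daf-18 in L4440 and 3.17% in H28O16.1. For lea-1 these shares were 3.42% and 17.3%, and for akt-2 48.8% and 50.3%.

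**Figure D3:**
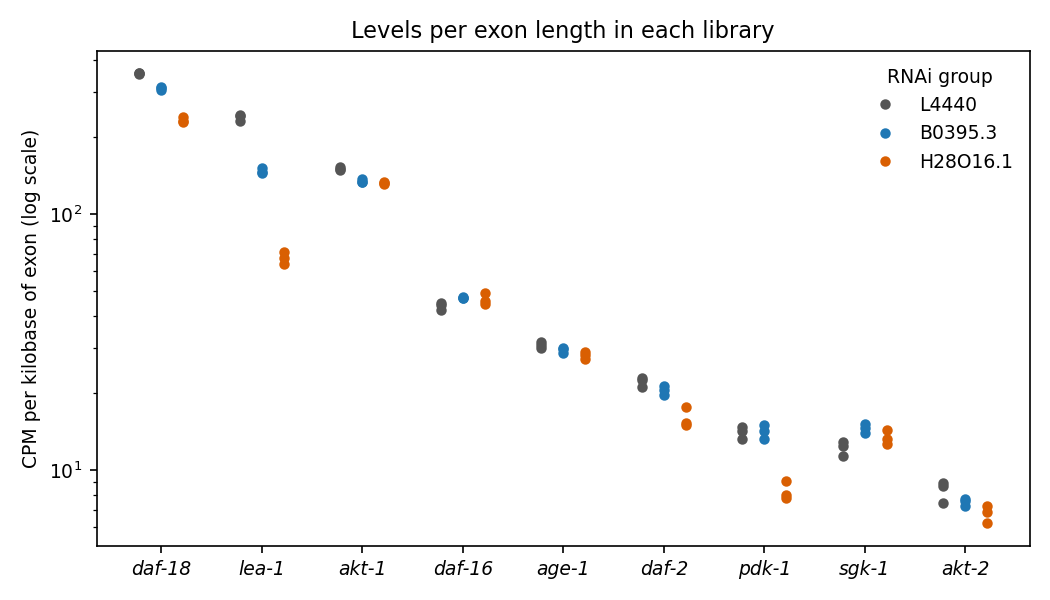
CPM per kilobase of exon (vertical log axis) of the 9 genes in each library, ordered by the L4440 mean and coloured by RNAi group. daf-18 is highest in each group, and lea-1 drops from 239 to 67.4 CPM per kilobase, below akt-1, in H28O16.1.

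Whole worms hold many tissues, so fewer cells of a type and less RNA per cell cannot be told apart. Summed CPM of marker lists were therefore read beside lea-1 and daf-18. The 16 embryo markers summed to 282 to 294 CPM in L4440, 305 to 307 CPM in B0395.3 and 212 to 225 CPM in H28O16.1. In B0395.3, where lea-1 fell, the summed embryo level lay above that of the controls, and only med-2 of that list was at 0. In L4440 med-2 and hlh-27 were at 0, and in H28O16.1 med-1 and hlh-27. Of the 11 embryo markers past the filter, 8 fell and 1 rose in H28O16.1 (median -3.69, beyond the -1.83 of lea-1), and 4 rose in B0395.3, where 0 fell by edgeR, at an unadjusted p under 0.05 and by DESeq2 (median 0.24).

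The 13 oocyte markers summed to 17054 to 18014 CPM in L4440, 15661 to 16404 CPM in B0395.3 and 14957 to 15863 CPM in H28O16.1, so both treated groups lay below the controls, as lea-1 and daf-18 did. The lowest library of this sum stood at 85.9% of the mean of the controls, and that of lea-1 at 26.6%. A sum follows its abundant genes, so its size cannot be set against that of a single gene. The 12 germ line markers summed to 4067 to 4150.3 CPM, 3913 to 4048 CPM and 3720.4 to 3854 CPM in the same order of groups. These germ line sums did not overlap between groups, as for lea-1 and daf-18, whereas the oocyte sums of the treated groups overlapped. The 10 intestine markers summed to 1952 to 2009 CPM in L4440, 1330.3 to 1360.1 CPM in B0395.3 and 1893 to 2078 CPM in H28O16.1. The 10 muscle markers summed to 732 to 883 CPM, 511 to 561 CPM and 842 to 1147 CPM, and the 10 hypodermis markers to 328 to 356 CPM, 295 to 303 CPM and 333 to 348 CPM. The 10 neuron markers summed to 284 to 292 CPM, 294 to 316 CPM and 286 to 316 CPM. The 13 sperm genes were sparse, at 6.12 to 7.67 CPM, 5.00 to 5.93 CPM and 10.7 to 11.4 CPM, with 1 copy of ssp-9 at 0 in L4440 and in H28O16.1. As percent of the control mean, the B0395.3 libraries of lea-1 lay between 60.5% and 63.3%. The muscle sum lay between 62.1% and 68.2% there, and the intestine sum between 66.9% and 68.4%. Sums of the other lists lay between 74.1% (sperm) and 109.6% (neuron) in B0395.3. In H28O16.1 lea-1 lay between 26.6% and 29.8%, the muscle sum between 102.4% and 139.5%, and the intestine sum between 95.2% and 104.5%. The other sums lay between 73.9% (embryo) and 169% (sperm) in H28O16.1. Gene by gene, the lists did not always follow their sums. In H28O16.1, 7 oocyte markers fell and 4 rose (median -0.10), 5 germ line markers fell and 4 rose (0.0064), 3 sperm genes fell and 1 rose of 6 past the filter (-0.15), 3 intestine markers fell and 5 rose (0.17), 5 hypodermis markers fell and 2 rose (-0.49), 4 muscle markers rose (0.05), and 1 neuron marker fell and 3 rose (0.11). In B0395.3, 6 oocyte markers fell (-0.10), 2 germ line markers fell and 1 rose (-0.02), 1 sperm gene fell (-0.28), 5 intestine markers fell and 2 rose (-0.24), 2 hypodermis markers fell and 1 rose (0.04), 5 muscle markers fell and 2 rose (-0.47), and 2 neuron markers rose (0.09). The part of these tissues in the changes of lea-1 and of the cascade was not tested.

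**Figure D4:**
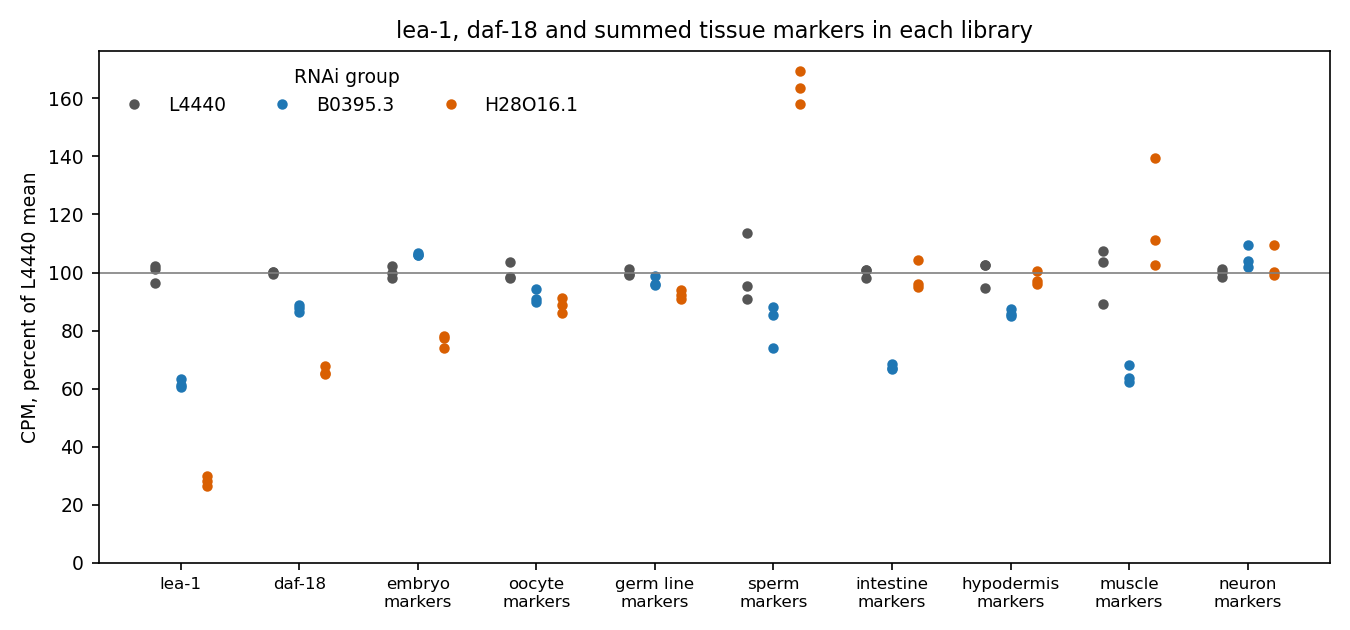
CPM of lea-1, of daf-18 and of 8 summed marker lists in each library, as percent of the L4440 mean (vertical axis, from 0), coloured by RNAi group. lea-1 falls to between 26.6% and 29.8% in H28O16.1. Sums follow abundant genes: the median log2 fold change of the embryo markers past the filter was -3.69 there, beyond the -1.83 of lea-1, although their sum moved less.

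The ligands were read from a list of 15 insulin-like peptide genes, of which 13 passed the filter. In H28O16.1, 4 rose and 1 fell (median 0.17), so 5 of 13 were called, where 57.6% of all genes were. ins-7, which is known to act as a DAF-2 agonist, stood at 7.31 ± 0.545 CPM in the controls (SD, n = 3) and rose to 25.2 ± 2.62 CPM, by 1.78 on the log2 scale (SE 0.10, adjusted p = 6.46e-09). ins-34 fell (-1.41), ins-17 rose (0.55), and daf-28, a DAF-2 agonist gene, rose from 1.01 to 1.49 CPM (0.55, adjusted p = 0.0142), a call lost without H28O16.1 replicate 3 (adjusted p = 0.0752). In B0395.3, 5 rose and 0 fell by edgeR, and also 0 at an unadjusted p and by DESeq2 (median 0.24), against 12.6% of all genes higher and 14.6% lower. ins-7 rose to 13.2 ± 1.29 CPM (0.85), and ins-34 (0.82), ins-3 (0.72) and ins-35 (1.11) rose as well. The count of 5 dropped to 3 without B0395.3 replicate 2 or L4440 replicate 3, and ins-35, at 0.447 CPM in B0395.3, was lost without either of these (adjusted p = 0.0847 and 0.0791) or L4440 replicate 2 (0.0546). With DESeq2 on all libraries ins-35 was not called either (adjusted p = 0.137). Reads of nkcc-1 on the opposite strand, which covers 16.17% of the exon bases of ins-34, may be counted with it.

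Of 17 genes for adaptors and modulators of the cascade, 12 passed the filter. In H28O16.1, 8 fell and 1 rose (median -0.14), against 31.2% of all genes lower and 26.3% higher. The members with the smallest p were let-363, the TOR kinase gene (-0.34), gsk-3, the glycogen synthase kinase gene (-0.34), rsks-1, the S6 kinase gene (-0.29), and eak-7, which acts on DAF-16 in parallel to AKT-1 (-0.26). These falls were small, and the count of 8 dropped to 4 without L4440 replicate 3 and to 5 without L4440 replicate 2, H28O16.1 replicate 1 or H28O16.1 replicate 2, while 2 rose without H28O16.1 replicate 3. In B0395.3, 0 rose and 0 fell by edgeR, with 1 higher and 1 lower at an unadjusted p under 0.05 and 0 by DESeq2 (median 0.01). The 4 with the smallest p there were at -0.10 for rict-1, the Rictor gene (adjusted p = 0.0804), 0.11 for gsk-3 (0.0968), -0.05 for eak-7 (0.241) and -0.05 for let-363 (0.316). Without L4440 replicate 1 rict-1 passed (-0.13, adjusted p = 0.0477), and without H28O16.1 replicate 3 rict-1 and gsk-3 each passed (-0.10 and 0.10, each with an adjusted p = 0.0183).

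All 21 genes for partners and regulators of DAF-16 passed the filter. In H28O16.1, 11 fell and 1 rose (median -0.27), so 12 of 21 were called, near the 57.6% of all genes. The smallest p belonged to tcer-1, a transcription elongation factor gene that works with DAF-16 in germline-less worms (-0.67, SE 0.03, adjusted p = 3.55e-10), swsn-1, of the SWI/SNF chromatin remodeller (-0.64), rle-1, an E3 ubiquitin ligase gene for DAF-16 (-0.59), and hsf-1, the heat shock factor gene (-0.41). In B0395.3, 3 rose and 4 fell (median -0.0095), against 12.6% and 14.6% of all genes. There pqm-1, whose product occupies the nucleus when DAF-16 does not, rose from 23.99 ± 1.45 to 32.1 ± 0.0985 CPM (0.42, adjusted p = 4.75e-05), hlh-30, the TFEB relative, rose (0.28), and rle-1 (-0.18) and tcer-1 (-0.11) fell. The counts in B0395.3 moved to 6 higher without H28O16.1 replicate 3, and to 2 lower without B0395.3 replicate 1, B0395.3 replicate 3 or L4440 replicate 2. The count of 1 higher in H28O16.1 moved to 2 without L4440 replicate 3, B0395.3 replicate 1 or H28O16.1 replicate 1.

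Genes known to be raised when DAF-16 is active made up a list of 27, of which 23 passed the filter. In H28O16.1, 13 fell and 3 rose (median -0.38), where 31.2% of all genes were lower and 26.3% higher. In B0395.3, 10 fell and 3 rose (median -0.14), where 14.6% of all genes were lower and 12.6% higher. Whether the list differs from other genes was not tested. ftn-1, a ferritin gene, stood at 40.9 ± 1.69 CPM in the controls (SD, n = 3). It fell to 15.3 ± 1.59 CPM after atp-1 RNAi (-1.42) and to 11.5 ± 0.500 CPM after B0395.3 RNAi (-1.83, adjusted p = 3.35e-09). In H28O16.1 the aquaglyceroporin gene aqp-1 (-1.35) and the small heat shock protein gene sip-1 (-0.998) fell. In B0395.3 icl-1, of the glyoxylate cycle, fell (-1.03), while hsp-12.6, a small heat shock protein gene, rose from 1.39 ± 0.0908 to 3.49 ± 0.0961 CPM (1.32, adjusted p = 3.19e-06). In H28O16.1 hsp-12.6 fell to 0.379 ± 0.0378 CPM (-1.87, adjusted p = 1.17e-06), a value added after it was seen. The lysozyme gene lys-7 rose in each, from 1403 ± 91.2 CPM to 3189 ± 177 CPM in H28O16.1 (1.19) and to 2238 ± 58.4 CPM in B0395.3 (0.67). The opposite-strand genes F43D9.8 and ctsa-3.1 cover 19.2% and 9.01% of the exon bases of sip-1 and aqp-1. hsp-16.48 has a near-identical copy, between which reads may be split.

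Genes known to be lowered when DAF-16 is active made up a list of 13, of which 11 passed the filter. In H28O16.1, 5 rose, and 0 fell by edgeR, at an unadjusted p under 0.05 and by DESeq2 (median 0.25). Without L4440 replicate 2 or H28O16.1 replicate 3, 1 fell. Beside ins-7, which is on this list too, the guanylyl cyclase gene gcy-18 (1.19), dod-19 (0.75) and the yolk protein gene vit-2 (0.28) rose. In B0395.3, 2 rose and 5 fell (median -0.10). dod-17 fell from 12.2 ± 0.135 to 5.22 ± 0.516 CPM (-1.22, adjusted p = 2.08e-07), and the yolk protein genes vit-5 (-0.80) and vit-2 (-0.49) fell, against the rise of ins-7. Over all genes, 26.3% were higher and 31.2% lower in H28O16.1, and 12.6% and 14.6% in B0395.3. These counts were not tested against those shares.

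Of 14 genes for desiccation tolerance and trehalose, all passed the filter. In H28O16.1, 8 fell and 3 rose (median -0.13), against 31.2% and 26.3% of all genes. In B0395.3, 6 fell and 1 rose (median -0.20), against 14.6% and 12.6%. gpdh-1, for glycerol synthesis under osmotic stress, rose in H28O16.1 from 5.77 ± 0.726 to 17.4 ± 0.460 CPM (1.59, SE 0.09, adjusted p = 8.19e-09) and fell in B0395.3 to 2.03 ± 0.152 CPM (-1.51, SE 0.11, adjusted p = 4.98e-07). Its relative gpdh-2 fell in each (-0.34 and -0.23). In H28O16.1 the trehalase gene tre-3 (-0.38) and djr-1.1, a DJ-1 relative (-0.26), fell. In B0395.3 the trehalose synthase gene tps-2 fell (-0.50) and the trehalase gene tre-5 rose (0.93). The count of 8 lower in H28O16.1 dropped to 4 without L4440 replicate 3 and to 5 without H28O16.1 replicate 2.

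**Figure D5:**
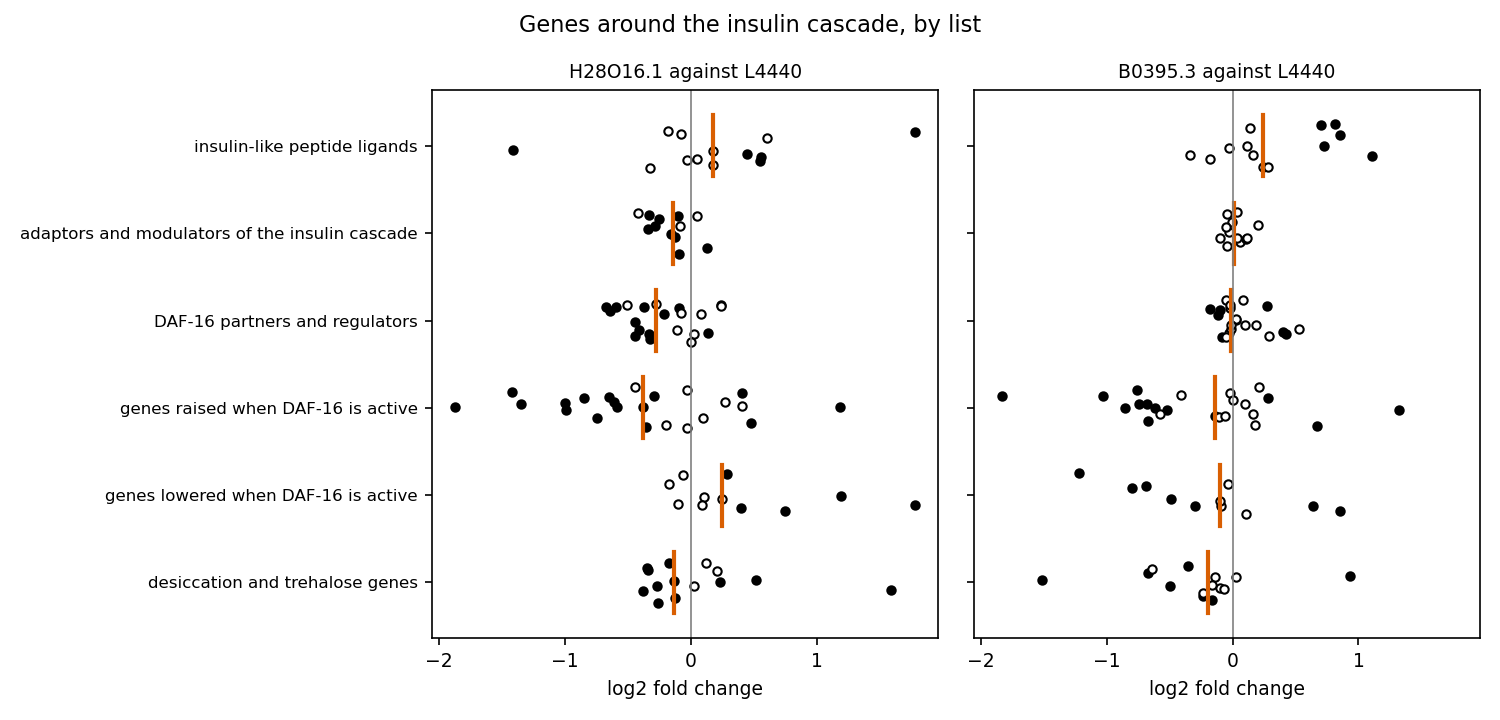
Log2 fold changes (horizontal axes) of the genes past the filter in 6 lists around the cascade, in the comparisons with L4440; filled points had an adjusted p under 0.05, and orange bars are list medians. The bar of the list raised by DAF-16 lies at -0.38 and -0.14, and that of the list lowered by DAF-16 at 0.25 and -0.10.

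Last, genes with a pattern most like that of lea-1 or daf-16 were sought among the 8504 genes whose mean over the libraries reached 5 CPM. Likeness was the root mean square distance of log2 CPM over the 9 libraries, each gene centred on its own mean, and it describes these libraries only. The nearest to lea-1 were hacd-1, a hydroxyacyl-CoA dehydrogenase gene (distance 0.15 log2 units), ech-7, an enoyl-CoA hydratase gene (0.18), the cytochrome P450 gene cyp-35A2 (0.20), rgs-5, a regulator of G protein signalling (0.24), and WBGene00010294 (0.25). hacd-1 stood at a mean of 112 CPM in L4440, 79.8 CPM in B0395.3 and 39.3 CPM in H28O16.1. That it shares the descending order of lea-1 follows from its choice by likeness over these same libraries. The nearest to daf-16 were cmtr-1 (0.02), the Mediator subunit gene mdt-26 (0.03), F46H5.7 (0.04), sftb-2 (0.04) and mab-31 (0.04), of which mab-31 in B0395.3 had the largest log2 fold change, 0.17.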

How the data were processed

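Counts per gene, whole numbers without normalization in 1 column per library, are those the authors deposited. Per the submitters' processing notes, the build was WBcel235 and the tools were featureCounts (1.4.6-p4), STAR (2.4.1d) and bcl2fastq (1.8.4). Their annotation release and settings: not given in the sources used here. The TruSeq RNA v2 kit of the labels' protocols takes poly(A) RNA without recording its strand, so overlapping genes on opposite strands share reads. A deposited RPKM table was not used. Gene names, coordinates and merged exon lengths came from Ensembl 115 (WBcel235), which lacks 299 of 46748 identifiers.

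Genes were filtered with filterByExpr (minimum count 10), scaled with TMM and fitted over all 9 libraries with edgeR 4.0.16 in R 4.3.3 (quasi-likelihood F-test, two-sided, Benjamini-Hochberg). The SE is the absolute log2 fold change divided by the square root of F. The biological coefficient of variation was 4.64%. Alternatives were RLE factors, no scaling factors, no filter, only the libraries compared, DESeq2 1.42.0, and leaving out each library. Members and lists were chosen with earlier results of these data known. From each pathway list the text names up to 4 genes with the smallest p in each comparison with L4440; daf-16 and lea-1 have their 5 nearest genes named. Replicate numbers follow record order, in which the groups alternate. The labels do not say whether that order reflects batches, and libraries were not paired.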

Additional observations from a re-analysis of the deposited data

How the results depend on the processing

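Fold changes of the 9 members were recomputed under 14 alternatives in 3 comparisons, which gave 378 values. Of these, 355 kept their direction and their side of the threshold, 14 passed the threshold only under the alternative, 6 lost it, and 3 changed sign. All 7 calls in H28O16.1 against L4440 were kept under all 14, as were those of lea-1, daf-18 and akt-1 in B0395.3. The 6 losses were of daf-16 (5) and sgk-1 (1), in B0395.3 against L4440. The sign changes were of values near 0: pdk-1 in B0395.3 against L4440, which was at -0.034 without L4440 replicate 1 and ranged from -0.039 to 0.056 as each library was left out, and daf-16 in H28O16.1 against B0395.3, which ranged from -0.061 to 0.010, above 0 without H28O16.1 replicate 2. Of the other named genes, let-363 (0.013) and eak-7 (0.0098) changed sign in B0395.3 against L4440 with no scaling factors. The number of members changed in B0395.3 ranged from 3 to 6 when a library was left out, that in H28O16.1 from 7 to 8, and that between treatments from 4 to 6. daf-16 also passed in H28O16.1 with RLE factors (adjusted p = 0.0306), no scaling factors (0.00695), no filter (0.0160) and DESeq2 (0.0435), and sgk-1 with no scaling factors (0.0265). daf-2 passed in B0395.3 with no filter (adjusted p = 0.0161) and with only the libraries compared (0.0222). With no scaling factors, 67.0% of the genes called in B0395.3 against L4440 were higher, against 46.2% with TMM, and tcer-1 was no longer called there (adjusted p = 0.203); the median of all genes moved from 0.0079 to 0.07. Without scaling, 8 partners of DAF-16 rose and 1 fell in B0395.3, and 4 adaptors and 4 desiccation genes fell in H28O16.1. DESeq2 called 2 ligands higher in H28O16.1 and 3 in B0395.3, and with DESeq2 or RLE factors 5 adaptors were lower in H28O16.1. No paired analysis was run, because the labels give no replicate numbers that the groups share. The cause of these changes was not tested. The 95% interval of sgk-1 in H28O16.1, from -0.0051 to 0.27, shows the size of difference left unresolved for that gene. Intervals differed between genes, and that of akt-1 in H28O16.1 ran from -0.24 to -0.14.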
